A study of Mus musculus with 4 samples.

Results

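The collagen genes were examined in the cerebrum of mice that lack Bcas1, a gene of myelinating oligodendrocytes. A probe set counted when the platform annotation gave it 1 gene whose whole symbol was Col, digits, a and digits. This rule took 82 probe sets of 42 genes, out of 18193 named genes, and the brightest probe set over the 4 arrays stood for each gene. The genes fall into 9 fibrillar collagens (types 1, 2, 3, 5 and 11), 8 basement membrane collagens (types 4, 15 and 18) and 25 others. The Bcas1 knockout group (BCAS1 KO, -/-) had 2 mice and the wild-type group (+/+) had 2. All were C57BL/6 males of 8 to 9 weeks bred from heterozygous parents, with 1 array per mouse. The labels call the tissue brain and cerebrum, and they do not say how the allele was made or where in the brain each sample was cut.

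Collagens are secreted proteins whose chains wind into a helical trimer. Fibrillar collagens form the fibrils of dura, pia and vessel adventitia, and type 4 collagen forms the sheet-like network under endothelium and at the brain surface. Brain parenchyma holds little fibrillar collagen, so much of the message in a cerebrum sample is known to come from meninges and vessels. Some of the remaining collagens are made by neurons themselves, such as types 19 and 25.

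Levels are given as log2 RMA values, in which 1 unit is a doubling. Probe sets differ in affinity, so levels were compared between mice, and between genes only to mark a probe set as dim or bright against the median of all. Arrays had medians of 6.49 and 6.49 in the knockout, against 6.51 and 6.49 in wild type. The brightest Bcas1 probe set measured 11.05 and 10.75 in the knockout mice, against 12.17 and 12.21 in the wild-type mice. Its 2 dim probe sets were higher in the knockout, at 0.77 and 0.64. Neuronal markers were bright, with a mean level of 11.89 and 11.81 over 6 genes in the knockout, against 11.89 and 11.90 in wild type. Nasal genes were high in knockout mouse 2 alone, apart from Omp, which did not stand apart there. The 6 of them, picked in an earlier analysis of these arrays, averaged 4.82 and 7.57 in the knockout, against 4.84 and 5.05 in wild type. Values without that array are given beside several results below.

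No collagen gene passed the test. By limma with Benjamini-Hochberg adjustment over 45037 probe sets, 0 of 42 had an adjusted p under 0.05 (0.0055% of all genes did), and the smallest adjusted p was 1. At an unadjusted p under 0.05 there were 3 (2.75% of all genes). Col1a1 was higher (1.68% of all genes), and Col11a1 and Col23a1 were lower (1.07% of all genes). The median difference, knockout minus wild type, was 0.0075 over the 42 genes and 0.0050 over all genes, with a range from -0.30 (Col11a1) to 0.41 (Col1a1). The median width of the 95% interval to either side, for a single gene without adjustment, was 0.23. Differences below about that size could not be resolved for a typical collagen gene, and larger ones could still miss the adjusted threshold. The brightest Bcas1 probe set, at -1.29, missed it. Within a genotype the mice differed by a median of 0.11 in the knockout and 0.070 in wild type. The median absolute difference between genotypes was 0.070. Over all genes these 3 values were 0.10, 0.070 and 0.055. A gap between single mice spreads wider than a difference between means of 2, so the first 2 are not on the scale of the third. In RNA from whole tissue, a change in the number of collagen-making cells and a change in RNA per cell cannot be told apart.

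Both knockout arrays lay on the same side of both wild-type arrays, so that the genotypes did not overlap, for 15 of the 42 genes, 35.7%, against 28.3% of all genes. Of these 6 were higher in the knockout (15.5% of all genes) and 9 were lower (12.8% of all genes). The 6 were Col1a1, Col1a2, Col3a1, Col4a1, Col6a2 and Col8a1. The 9 were Col4a2, Col6a1, Col6a3, Col11a1, Col14a1, Col16a1, Col19a1, Col23a1 and Col27a1. Of the 20 collagen genes at or above the median level of all probe sets, 6.49, the genotypes did not overlap in 12, or 60%, against 28.6% of all genes at or above it. Of the 22 below it they did not overlap in 3, or 13.6%, against 27.8% of all genes below it. The 12 comprised 5 higher and 7 lower genes. By class, 3 fibrillar genes were higher and 1 was lower, 1 basement membrane gene was higher and 1 was lower, and 2 of the others were higher and 7 were lower. The class medians were 0.010 for fibrillar, 0.040 for basement membrane and 0.0050 for other collagens. Col27a1, a fibril-forming chain outside the fibrillar types listed above, is counted among the 7 lower others. These classes were set side by side as a description, and their difference was not tested.

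**Figure D1:**
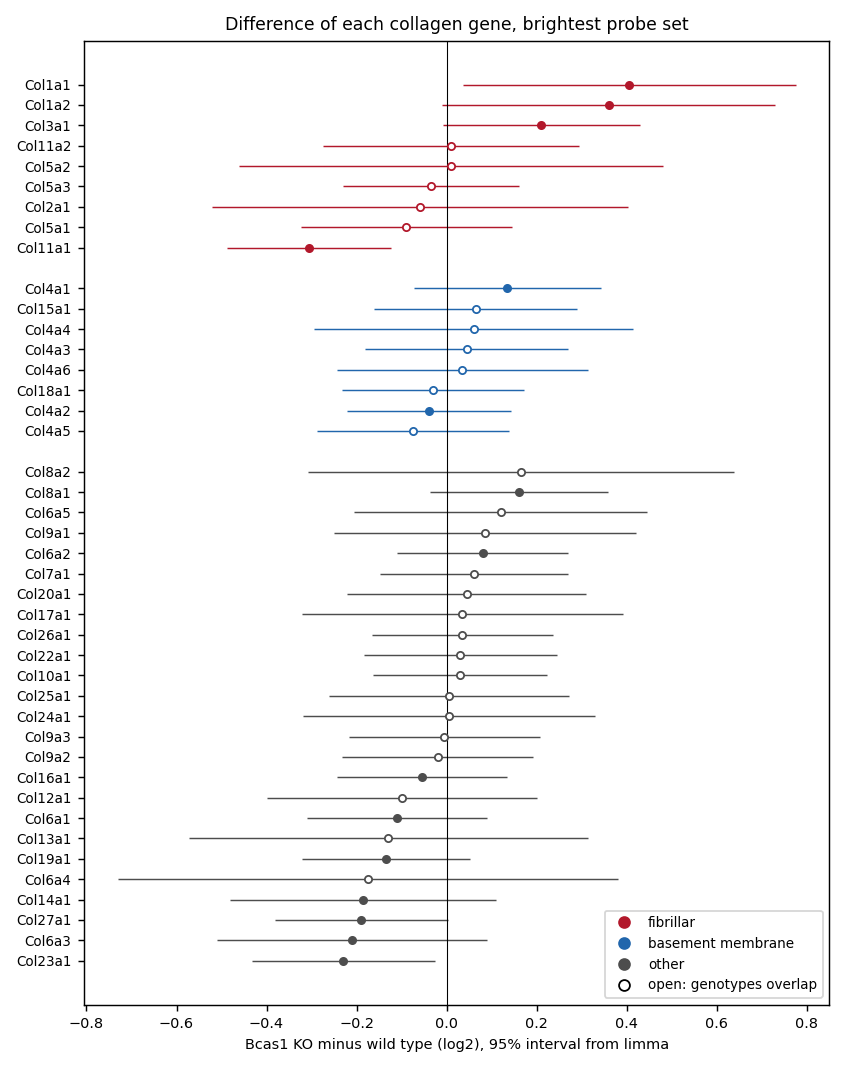
Knockout minus wild-type difference in log2 units (horizontal) for each of the 42 collagen genes, grouped by class, with limma's 95% interval as bars and 2 mice per genotype. Filled points mark the 15 genes whose genotypes do not overlap; Col1a1, Col1a2 and Col3a1 lie to the right of 0 and Col11a1 lies to the left of the other fibrillar genes.

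Among the fibrillar collagens the chains of types 1 and 3, the main fibril formers of meninges and adventitia, were higher in both knockout mice. Col1a2, the alpha-2 chain of type 1 (probe set 1450857_a_at), measured 9.59 and 9.96 in the knockout, against 9.37 and 9.46 in wild type. Both knockout values lay above both wild-type values, and mouse 2 of the knockout stood highest. The difference was 0.36 (SE 0.14, 95% interval -0.0095 to 0.73), a 1.28-fold level, with an adjusted p of 1 in limma. Without knockout mouse 2 it was 0.18, and without knockout mouse 1 it was 0.545.

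Col1a1, the alpha-1 chain of type 1 (probe set 1455494_at), measured 6.28 and 6.31 in the knockout, against 5.70 and 6.08 in wild type. The groups did not overlap, and here the wild-type mice were the ones that differed. The difference was 0.41 (SE 0.14, 95% interval 0.035 to 0.77), a 1.32-fold level, with an unadjusted p of 0.0376 and an adjusted p of 1 in limma. It was 0.22 without wild-type mouse 1 and 0.595 without wild-type mouse 2, and averaging both Col1a1 probe sets gave 0.18.

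Col3a1, the single chain of type 3 (probe set 1427883_a_at), measured 7.86 and 7.99 in the knockout, against 7.68 and 7.75 in wild type. The groups did not overlap, with a difference of 0.21 (SE 0.083, 95% interval -0.0083 to 0.43) and an adjusted p of 1 in limma. Ranked from high to low among 18193 genes, the differences of Col1a1, Col1a2 and Col3a1 stood at 63, 97 and 620. They were singled out after their values were seen, so these ranks are a description.

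Of the other 6 fibrillar genes, 4 had negative differences, and Col5a2 and Col11a2 each stood at 0.010. Col11a1, a minor chain that nucleates thin fibrils in cartilage (probe set 1418599_at), measured 6.30 and 6.34 in the knockout, against 6.63 and 6.62 in wild type. The mice of each genotype were nearly equal, and both knockout values lay below both wild-type values. The difference was -0.305 (SE 0.070, 95% interval -0.49 to -0.12), a 0.81-fold level, with an unadjusted p of 0.0081 and an adjusted p of 1 in limma. Its dimmer probe set differed by -0.060, with overlap, and the mean of both gave -0.18.

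The type 5 chains, Col2a1 and Col11a2 overlapped between genotypes on their brightest probe sets. Col5a1, which sets the diameter of type 1 fibrils, measured 6.93 and 7.01 in the knockout, against 7.14 and 6.98 in wild type. Its partner Col5a2 measured 6.81 and 7.32 in the knockout, against 7.03 and 7.08 in wild type, so the knockout mice lay on either side of the wild types. Col5a3 differed by -0.035 (SE 0.075). Col2a1, the cartilage fibril chain, measured 5.36 and 5.86 in the knockout, against 5.69 and 5.65 in wild type. Its difference was -0.060, and 0.19 without knockout mouse 1. Col11a2, the other type 11 chain, differed by 0.010 (SE 0.11). Averaged over the 9 fibrillar genes, the level relative to the wild-type mean stood at -0.026 in knockout mouse 1 and 0.14 in mouse 2. The wild-type mice stood at -0.026 and 0.026. Over all genes the knockout mice stood at -0.017 and 0.037.

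**Figure D2:**
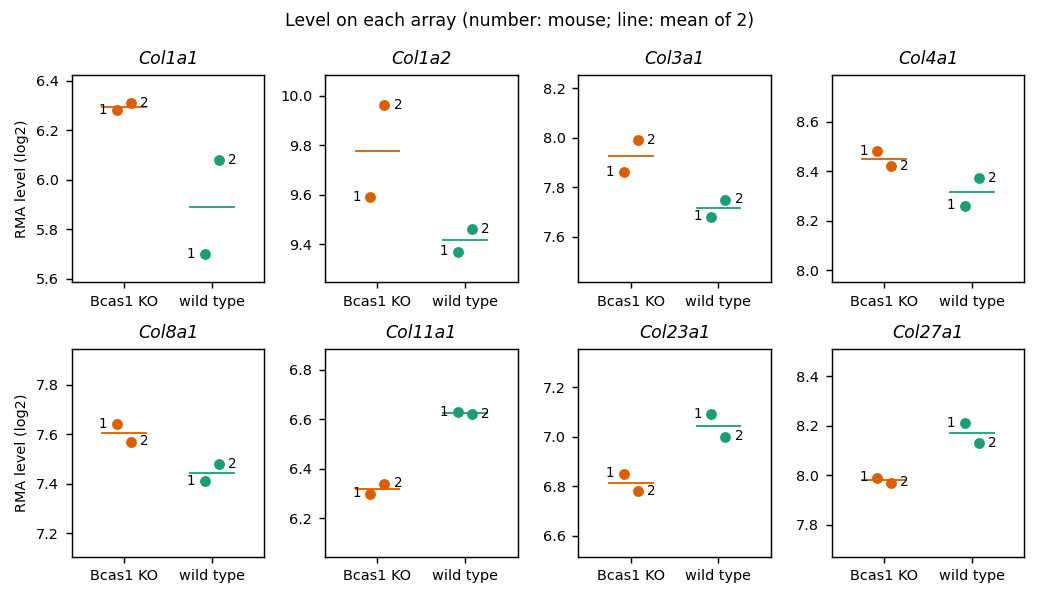
RMA level in log2 units (vertical) of 8 collagen genes on each array, knockout left and wild type right; the number is the mouse and the line is the mean of 2. Every panel spans the same height; the knockout points lie above the wild-type points for the first 5 genes and below them for Col11a1, Col23a1 and Col27a1.

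Upstream sequence is shown for the 2 members with the largest difference in each direction among those with a RefSeq window, Col1a2 and Col3a1 as higher genes and Col11a1 and Col23a1 as lower ones. Each line gives the 250 bases before the RefSeq start in GRCm38.p6, 5′ to 3′ on the gene's strand. Col1a2 is chr6:4505368-4505617, Col3a1 is chr1:45311288-45311537, Col11a1 is chr3:114030290-114030539 and Col23a1 is chr11:51289670-51289919, all on the + strand. Capitals mark 3 short motifs, each also searched as its reverse complement on the other strand. The CCAAT box was read as CCAAT. The TATA element was read as its core letters TATAAA. The GC box, a site that Sp1 can bind, was read as GGGCGG. None of the motifs lies within another.
Col1a2: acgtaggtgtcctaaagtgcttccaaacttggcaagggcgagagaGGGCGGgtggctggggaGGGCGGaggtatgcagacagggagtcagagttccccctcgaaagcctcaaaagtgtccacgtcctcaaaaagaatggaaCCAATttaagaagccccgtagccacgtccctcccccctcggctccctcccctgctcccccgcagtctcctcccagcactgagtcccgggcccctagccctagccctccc
Col3a1: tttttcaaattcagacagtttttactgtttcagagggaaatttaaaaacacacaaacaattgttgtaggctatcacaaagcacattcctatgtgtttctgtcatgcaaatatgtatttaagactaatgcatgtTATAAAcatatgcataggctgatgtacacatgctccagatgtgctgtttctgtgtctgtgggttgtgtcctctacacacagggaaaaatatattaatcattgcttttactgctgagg
Col11a1: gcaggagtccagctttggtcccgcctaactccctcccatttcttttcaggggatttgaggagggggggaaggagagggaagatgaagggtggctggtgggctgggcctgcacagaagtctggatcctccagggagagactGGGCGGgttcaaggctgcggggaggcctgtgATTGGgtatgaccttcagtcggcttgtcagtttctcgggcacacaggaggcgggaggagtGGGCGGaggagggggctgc
Col23a1: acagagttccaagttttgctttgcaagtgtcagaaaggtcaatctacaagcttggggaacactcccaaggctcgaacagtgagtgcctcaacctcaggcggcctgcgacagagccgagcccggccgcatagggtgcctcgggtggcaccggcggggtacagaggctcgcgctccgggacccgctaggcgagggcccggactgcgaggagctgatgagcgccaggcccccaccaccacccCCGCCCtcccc

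The higher pair did not share a motif. Col1a2 held 2 GC boxes and a CCAAT box that begins 109 bases before the start, whereas Col3a1 held only a TATAAA, 117 bases before the start. Col11a1 held 2 GC boxes and 1 CCAAT box, the latter read on the other strand. Col23a1 held 1 GC box, also read on the other strand. RefSeq windows were matched for 33 of the 42 genes, 36 windows in all. Of these 21, or 58.3%, held a GC box, against 42.6% of windows of protein-coding genes. A CCAAT box was in 36.1% of the collagen windows, against 35.4%, and TATAAA in 13.9%, against 11.6%. A match describes letters in this window and does not show binding.

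Of the basement membrane collagens, Col4a1 and Col4a2, which together form the common type 4 trimer of brain vessels, did not differ in the same direction. Col4a1 (probe set 1452035_at) measured 8.48 and 8.42 in the knockout, against 8.26 and 8.37 in wild type. Both knockout values were higher, with a difference of 0.135 (SE 0.080, 95% interval -0.073 to 0.34) and an adjusted p of 1 in limma. Its second probe set differed by 0.18, again without overlap. Col4a2 measured 7.83 and 7.86 in the knockout, against 7.87 and 7.90 in wild type. Both knockout values were lower, but only by 0.040 (-0.040, SE 0.070), and the genotypes overlapped once arrays were centred on their medians. The genes lie head to head on chromosome 8, and their RefSeq starts are 21 bases apart on opposite strands. Their 95% intervals overlap, and the contrast between the chains was not tested.

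The remaining type 4 chains were dim or near 0 in difference. Col4a3 and Col4a4, of the kidney and cochlear network, differed by 0.045 and 0.060 from levels near 5, below the median of the array. Col4a5 measured 6.39 and 6.52 in the knockout, against 6.55 and 6.51 in wild type, and Col4a6 differed by 0.035. Col18a1, the precursor of endostatin, measured 7.53 and 7.64 in the knockout, against 7.62 and 7.61 in wild type. Col15a1, a related proteoglycan collagen, differed by 0.065 (SE 0.086). Averaged over the 8 genes, the level relative to the wild-type mean stood at -0.036 in knockout mouse 1 and 0.085 in knockout mouse 2. The wild-type mice stood at -0.026 and 0.026, and over all genes the knockout mice stood at -0.017 and 0.037.

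Type 6 collagen, a beaded microfibril of meninges and vessel walls built from Col6a1, Col6a2 and Col6a3, was split as well on the brightest probe sets. Col6a3 measured 6.51 and 6.79 in the knockout, against 6.88 and 6.84 in wild type, a difference of -0.21 (SE 0.11), which was -0.070 without knockout mouse 1 and -0.35 without knockout mouse 2. Col6a1 measured 7.70 and 7.80 in the knockout, against 7.88 and 7.84 in wild type, a difference of -0.11 (SE 0.077). Col6a2 went the other way, with 8.02 and 8.09 in the knockout against 7.96 and 7.99 in wild type, a difference of 0.080 (SE 0.073), or 0.045 without knockout mouse 2. Both Col6a1 and Col6a3 were thus lower in both knockout mice and the brightest Col6a2 probe set higher, and the 95% interval of each included 0. The dimmer Col6a2 probe set overlapped, at 7.19 and 7.25 in the knockout against 7.25 and 7.25 in wild type. Its difference was -0.03, and the mean of both Col6a2 probe sets gave 0.025. Col6a4 measured 5.96 and 6.53 in the knockout, against 6.54 and 6.30 in wild type. Col6a5 was dim, with a difference of 0.12.

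Col8a1, the alpha-1 chain of the short-chain network of vascular and endothelial matrix, was higher in both knockout mice on each of its 3 probe sets. The brightest measured 7.64 and 7.57 in the knockout, against 7.41 and 7.48 in wild type, a difference of 0.16 (SE 0.076, adjusted p of 1 in limma). The dimmer probe sets differed by 0.335 and 0.24, and none of the 3 overlapped between genotypes. Its partner Col8a2 measured 6.59 and 6.97 in the knockout, against 6.44 and 6.79 in wild type, so its groups overlapped at a difference of 0.165 (SE 0.18).

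Several collagens outside the fibrillar and basement membrane classes were lower in both knockout mice. Col23a1, a transmembrane collagen, measured 6.85 and 6.78 in the knockout, against 7.09 and 7.00 in wild type. Both knockout values were lower, by 0.23 (-0.23, SE 0.078, 95% interval -0.43 to -0.027), with an unadjusted p of 0.0337 and an adjusted p of 1 in limma. All 3 of its probe sets had negative differences, 2 of them without overlap.

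Col27a1, a fibril-forming chain of cartilage that the classes used here place among the others, measured 7.99 and 7.97 in the knockout, against 8.21 and 8.13 in wild type. The difference was -0.19 (SE 0.073), with both knockout mice lower, and the dimmer probe set differed by -0.375, also without overlap. Col19a1, made by interneurons in the mouse brain, measured 8.23 and 8.28 in the knockout, against 8.41 and 8.37 in wild type. Its difference was -0.135 (SE 0.071), and its 3 probe sets all had negative differences. Col16a1, a fibril-associated chain, was 0.055 lower (-0.055, SE 0.072).

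Other fibril-associated collagens gave no steady direction. Col14a1 measured 5.53 and 5.59 in the knockout, against 5.88 and 5.61 in wild type. Its brightest probe set gave -0.185 but the 2 dimmer ones gave 0.125 and 0.25, so the gene has no settled sign. Col12a1 differed by -0.10 (SE 0.11) with overlap. The type 9 chains Col9a1, Col9a2 and Col9a3, which decorate type 2 fibrils in cartilage, differed by 0.085, -0.020 and -0.0050. Col13a1, a transmembrane collagen, differed by -0.13 (SE 0.17), and Col7a1, the anchoring fibril chain of skin, by 0.060 (SE 0.080). The remaining 8 genes, Col10a1, Col16a1, Col17a1, Col20a1, Col22a1, Col24a1, Col25a1 and Col26a1, lay between -0.055 and 0.045. Col25a1, a transmembrane collagen of neurons, measured 9.59 and 9.36 in the knockout against 9.49 and 9.45 in wild type.

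Probe sets of one gene often disagreed. Of the 27 genes with more than 1 probe set, 12, or 44.4%, had differences of 1 sign on all of them, against 40.8% of all such genes. Those with positive differences throughout were Col3a1, Col4a1, Col4a3, Col8a1, Col9a1 and Col20a1, and those with negative differences throughout were Col5a1, Col5a3, Col11a1, Col19a1, Col23a1 and Col27a1. Col1a2 had 2 probe sets at 0.36 and 0.53, both without overlap, and a dim one at -0.055. The second Col1a1 probe set measured 5.24 and 5.65 in the knockout, against 5.46 and 5.52 in wild type, a difference of -0.045. Over all 82 collagen probe sets, 31 had no overlap between genotypes, 37.8%, against 27.1% of 45037.

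**Figure D3:**
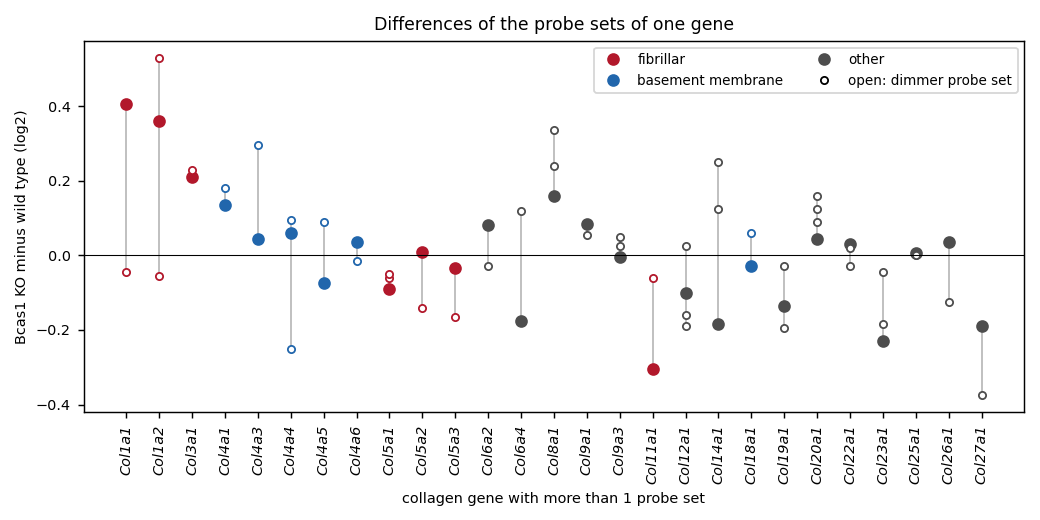
Knockout minus wild-type difference in log2 units (vertical) of every probe set of the 27 collagen genes with more than 1, filled for the brightest probe set and open for dimmer ones. Col3a1, Col4a1 and Col8a1 lie wholly above 0 and Col23a1 and Col27a1 wholly below, while Col1a1, Col4a4 and Col14a1 straddle it.

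Collagen genes that neighbour each other in the genome were compared by the sign of their differences. In the RefSeq gene order, 7 pairs of measured collagen genes are adjacent among protein-coding genes. Of these, Col3a1 with Col5a2 (0.21 and 0.010) and Col4a4 with Col4a3 (0.060 and 0.045) had the same sign. The other 5 pairs, which include Col4a1 with Col4a2 and Col6a2 with Col6a1, had opposite signs. The share over all adjacent gene pairs was not computed. Several of these signs, such as those of Col4a4, Col4a5 and Col5a2, changed with the processing, so the count is only a description.

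Genes that build, bind or cut collagen gave 0 calls in limma in each of 5 lists. The modification and assembly list had 25 measured genes with a median difference of -0.0050, against 0.0050 for all genes, 1 with an unadjusted p under 0.05 higher (1.68% of all genes) and 2 lower (1.07% of all genes). Without knockout mouse 2 its median was -0.10, against -0.015 for all genes. P4ha2, a prolyl 4-hydroxylase subunit, measured 7.21 and 7.33 in the knockout, against 7.47 and 7.56 in wild type, a difference of -0.245 (SE 0.084). Loxl3, a lysyl oxidase that cross-links fibrils, measured 6.55 and 6.58 in the knockout, against 6.83 and 6.76 in wild type, a difference of -0.23 (SE 0.073). Both were lower in both knockout mice, and P4ha1, the other hydroxylase subunit named by the rule, overlapped at -0.155. The lysyl oxidases Lox and Loxl1, too dim for the rule, were higher in both knockout mice, at 0.275 and 0.17. In the whole list 3 genes were higher without overlap (15.5% of all genes) and 2 were lower (12.8% of all genes).

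Receptors and proteases were near 0 as lists. Of 9 measured collagen receptors the median was 0.030, with 1 gene at an unadjusted p under 0.05 (2.75% of all genes). That gene was Mrc2, which takes up collagen fragments, at 6.76 and 6.83 in the knockout, against 6.59 and 6.58 in wild type (difference 0.21, SE 0.072). The receptor Ddr1 differed by 0.11 (SE 0.099) and Itgb1, the integrin beta-1 chain, by -0.125 (SE 0.10). The 10 genes of collagen breakdown had a median of 0.025, with 0 at an unadjusted p under 0.05. Without knockout mouse 2 that median was -0.075, against -0.015 for all genes. Mmp14, a membrane collagenase, measured 7.84 and 7.72 in the knockout, against 7.44 and 7.67 in wild type (difference 0.225, SE 0.11), and the inhibitors Timp2 and Timp3 differed by -0.015 and 0.040.

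Proteins bound to fibrils were the list with the largest median among these 5. All 12 of its genes had positive differences (51.7% of all genes did), the median was 0.12, and 5 were higher without overlap (15.5% of all genes were). Without knockout mouse 2 the median was 0.015, against -0.015 for all genes. Then 7 genes lay above the wild-type mean and 5 below it, against 42.8% of all genes above it. Fmod, a proteoglycan that binds type 1 fibrils, measured 8.94 and 9.12 in the knockout, against 8.57 and 8.68 in wild type, a difference of 0.405 (SE 0.097) with an unadjusted p of 0.00969 and an adjusted p of 1 in limma. Bgn, a related proteoglycan, measured 8.08 and 8.39 in the knockout, against 7.90 and 8.02 in wild type (difference 0.275, SE 0.13). Lum overlapped at 7.41 and 7.74 in the knockout, against 7.44 and 7.33 in wild type. The mean of the list stood 0.028 above the wild-type mean in knockout mouse 1 and 0.29 above it in knockout mouse 2, so most of its shift lay in mouse 2.

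The partners of type 4 collagen in basement membrane had a median of 0.025 over 15 measured genes, with 0 at an unadjusted p under 0.05. Nid1, which links laminin to type 4 collagen, measured 8.07 and 8.13 in the knockout, against 7.96 and 8.03 in wild type. Sparc, a collagen chaperone, differed by 0.065 (SE 0.069), and Lamb1, a laminin chain, by -0.085 (SE 0.10).

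Markers of the cells that make collagen are set beside these results. Of 8 meningeal fibroblast markers 7 had positive differences (51.7% of all genes did), with a median of 0.1425. Without knockout mouse 2, 6 were positive (42.8% of all genes were), and the median was 0.09, against -0.015 for all genes. The mean level of the 8 was 8.42 and 8.57 in the knockout, against 8.31 and 8.42 in wild type. All 9 mural cell markers had positive differences (51.7% of all genes did), 6 without overlap (15.5% of all genes), and 8 stayed positive without knockout mouse 2. They had a mean level of 8.30 and 8.31 in the knockout, against 8.10 and 8.15 in wild type. Endothelial markers overlapped, at 8.08 and 8.19 in the knockout, against 8.11 and 8.10 in wild type. Bone and cartilage markers were mostly dim, at 5.24 and 5.42 over 8 genes in the knockout, against 5.30 and 5.25 in wild type. Their part in the collagen values, and that of the nasal genes of knockout mouse 2, was not tested. Without that mouse Col1a1, Col3a1, Col4a1 and Col8a1 differed by 0.39, 0.145, 0.165 and 0.195.

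**Figure D4:**
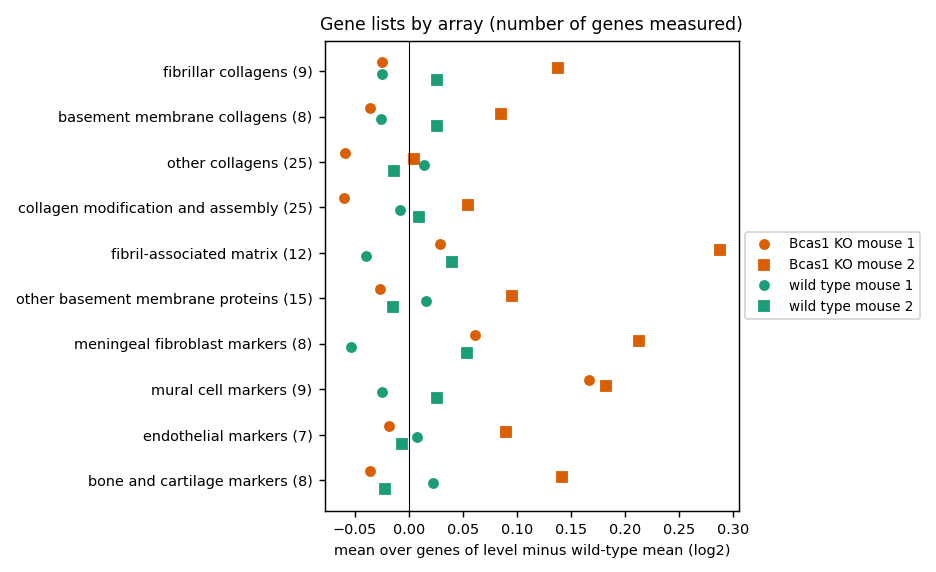
Mean over the genes of each list of the level minus the wild-type mean, in log2 units (horizontal), for each array, with the number of genes in brackets. Knockout mouse 2 stands to the right for the fibril-associated matrix, at 0.29, and the fibrillar collagens, at 0.14. It also does so for meningeal fibroblast markers, at 0.21, and bone and cartilage markers, at 0.14. Over all genes, which are not drawn, it stands at 0.037. Both knockout mice stand to the right for mural cell markers, at 0.17 and 0.18.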

How the data were processed

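Total RNA of 4 brains, treated with DNase, was labelled from 100 ng with a 3' IVT kit and hybridised to 1-colour Affymetrix arrays, per the labels' protocols. The authors deposited 1 log2 value per probe set and array, made with RMA per the submitters' processing notes, without a stated version. RMA gives the arrays a shared distribution and compresses changes of dim probe sets. There are no detection calls, arrays have no depth, and their number limits the precision.

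The table has 45101 rows, of which 64 controls were left out. The annotation gave 1 gene to 34945 probe sets. Genotypes were compared in limma 3.58.1 under R 4.3.3 (lmFit, then eBayes). The test was two-sided and adjusted by the Benjamini-Hochberg method over 45037 probe sets at 0.05. SEs and 95% intervals use the moderated variance, on 2 residual and 2.74 prior degrees of freedom. With 2 mice a side, exact permutation cannot reach a p below 0.333. The fit was tested on simulated data. Sequence windows are from RefSeq, GRCm38.p6.

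Named genes were all fibrillar and basement membrane collagens, types 6, 8, 9 and 12, the 6 other collagens with the largest absolute difference, Bcas1, and up to 3 genes a list at or above the median level. The remaining 8 collagens were named after their values were seen. The members and lists were chosen with earlier results of these data known. Alternatives were array centring, a repeat of quantile normalization, removal of dim probe sets, a variance trend, other probe set choices, leaving out each array, and mouse number as a block.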

Additional observations from a re-analysis of the deposited data

How the results depend on the processing

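With 2 mice per genotype the array number is the main limit, and dim probe sets are compressed. Under all 11 alternatives 0 collagen genes and 0 genes of the 5 related lists passed the threshold, and the smallest adjusted p of any of the 34 collagens taken by the rule was 0.573 in limma. Of these, 15 kept their sign under every alternative that could be computed, Col1a1, Col1a2, Col3a1, Col4a1, Col8a1, Col11a1, Col19a1, Col23a1 and Col27a1 among them. The variance trend, the block and the dim filter leave the difference of each kept gene unchanged, so they could not change a sign. The cause of each shift below was not tested.

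With the filter on dim probe sets the medians were 0.11 over 4 fibrillar genes, with 0 lower without overlap, -0.035 over 4 basement membrane genes and -0.0775 over 12 others; fewer genes were tested. Centring the arrays, and repeated quantile normalization, each left 0 basement membrane genes lower without overlap, and turned Col9a3 to 0.0050 and 0.0025. Averaging probe sets turned the fibrillar median to -0.06, with 2 fibrillar genes higher without overlap (Col1a1 then overlapped) and 2 lower, and gave 2 basement membrane genes higher and 2 lower without overlap. It turned Col4a4 (-0.0317), Col4a5 (0.0075), Col5a2 (-0.065), Col9a3 (0.0233), Col14a1 (0.0633) and Col18a1 (0.015). Probe sets without a suffix left 1 other collagen higher without overlap and turned Col14a1 to 0.125.

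Leaving out 1 array at a time, the median ranged from -0.05 to 0.0175 over all collagens, -0.07 to 0.19 over fibrillar, -0.0425 to 0.095 over basement membrane and -0.045 to 0.005 over other collagens. The lowest medians came without knockout mouse 2. The highest fibrillar and basement membrane medians came without knockout mouse 1. The median over all genes moved too, to -0.015 without knockout mouse 2 and 0.03 without knockout mouse 1. Genes without overlap numbered 9 to 16 higher and 13 to 21 lower in all. For fibrillar genes they numbered 3 to 5 and 2 to 5, and for basement membrane genes 1 to 5 and 1 to 4. For others they numbered 5 to 7 and 9 to 12. These counts grow because a single array overlaps less. The share over all genes was not computed with an array left out, and the 28.3% for all 4 arrays cannot stand in for it. The single-array ranges of genes that changed sign were -0.31 to 0.19 for Col2a1, with Col11a2 at -0.12 to 0.14, Col12a1 at -0.205 to 0.005, Col13a1 at -0.33 to 0.07, Col15a1 at -0.01 to 0.14, Col18a1 at -0.085 to 0.025, Col4a3 at -0.03 to 0.12, Col4a4 at -0.12 to 0.24, Col4a6 at -0.08 to 0.15, Col5a2 at -0.245 to 0.265, Col6a4 at -0.46 to 0.11, Col6a5 at -0.04 to 0.28, Col8a2 at -0.025 to 0.355, Col9a1 at -0.04 to 0.21, Col9a2 at -0.08 to 0.04 and Col9a3 at -0.06 to 0.05.

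The mouse numbers shared by the groups are not stated to pair mice. Deviations of same-numbered mice correlated at 0.241 across probe sets, and with 2 pairs this does not establish a pairing. With the mouse number as a replicate block 0 collagen genes passed, and the median difference was 0.0075. In this balanced layout a block cannot change a difference, so that median was fixed in advance.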
